A study of Homo sapiens with 22 samples.

Results

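The 10 genes described here encode secreted inflammatory mediators: the chemokines CXCL1, CXCL2, CXCL8, CCL2 and CCL20 and the cytokines IL6, IL11, LIF, CSF2 and TNF. They were chosen by name, and all 10 were found among the 25343 genes listed in the files. The study profiled messenger RNA by sequencing in cultured human renal cancer cells, with the stated purpose of describing models of metastasis. The 22 libraries fell into 7 groups. Of the 3 unmodified lines, 786-O, 786-M1A and OS-LM1, each had 2 libraries, each described in the labels as a renal cancer line. As background, 786-O is a long-established line from a clear cell renal carcinoma, and 786-M1A is a metastatic derivative of it. The parental line of OS-LM1 was not analysed here. The other 16 libraries were of 786-M1A cells with CRISPR interference (CRISPRi), in which a catalytically dead Cas9 joined to a repressor is brought to DNA by a guide RNA. Their guides were a non-targeting control called SC (6 libraries), iMAE-126 (2), iMAE-1.2 (4) and iMAE-1.1 (4), and the labels do not say which DNA element each guide binds. All CRISPRi groups share the 786-M1A background and no other treatment is named. Nothing in the labels says that replicates came from separate cultures, so the p-values below measure only how much libraries differ, and that spread may be technical.

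As background, transcription of most of these genes is switched on by NF-kB and AP-1 in response to TNF, interleukin-1 or stress. CXCL1, CXCL2 and CXCL8 attract neutrophils through CXCR2 (CXCL8 also through CXCR1), CCL2 attracts monocytes through CCR2, and CCL20 attracts lymphocytes and dendritic cells through CCR6. IL6, IL11 and LIF bind receptors that share the signalling subunit gp130, encoded by IL6ST, and act through JAK kinases and STAT3. CSF2 (GM-CSF) supports granulocytes and macrophages, and TNF is itself an activator of NF-kB. Many of their messenger RNAs are short-lived and are degraded by factors such as ZFP36 and ZC3H12A. Renal carcinoma cells are known to secrete several of these factors, IL6 and CXCL8 among them.

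The promoters show how closely some of the genes resemble each other. The RefSeq promoter table (build GRCh38.p14) held 8 of the 10, and LIF and CCL2 had no entry. The window read was the 250 bases before the start, searched on both strands for an NF-kB motif (GGG, then 3 bases of any kind, then TTCC), for a stricter form of it (GGG, then 2 bases of any kind, then TTTCC) and for the AP-1 motif TGANTCA. The NF-kB motif was found in 4 of the 8 promoters (CXCL1, CXCL2, IL6, CCL20) and in 5.67% of all 35116 promoters of that length, and the stricter form was in the same 4 promoters and in 1.73% of all. The AP-1 motif was in 2 of the 8 (CXCL8 and IL11) and in 6.57% of all. The 140 bases nearest the start are printed for the 6 promoters with a match, since several of these genes moved together in the comparisons below, with the matched bases in capitals, 5′ to 3′ on the gene's strand. They lie at chr4:73869253-73869392 (plus strand, CXCL1), chr4:74099196-74099335 (minus strand, CXCL2), chr4:73740429-73740568 (plus strand, CXCL8), chr7:22727060-22727199 (plus strand, IL6), chr2:227813702-227813841 (plus strand, CCL20) and chr19:55370464-55370603 (minus strand, IL11).
CXCL1: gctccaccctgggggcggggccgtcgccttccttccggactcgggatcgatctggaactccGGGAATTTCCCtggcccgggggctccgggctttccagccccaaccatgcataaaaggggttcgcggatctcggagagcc
CXCL2: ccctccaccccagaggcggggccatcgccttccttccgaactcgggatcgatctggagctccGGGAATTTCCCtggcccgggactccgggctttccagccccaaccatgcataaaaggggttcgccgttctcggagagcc
IL6: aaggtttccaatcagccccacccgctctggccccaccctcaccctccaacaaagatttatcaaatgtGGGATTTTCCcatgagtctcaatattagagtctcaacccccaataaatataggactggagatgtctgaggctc
CCL20: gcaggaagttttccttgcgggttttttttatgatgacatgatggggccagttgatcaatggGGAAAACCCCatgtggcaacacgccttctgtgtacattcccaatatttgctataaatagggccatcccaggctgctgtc
CXCL8: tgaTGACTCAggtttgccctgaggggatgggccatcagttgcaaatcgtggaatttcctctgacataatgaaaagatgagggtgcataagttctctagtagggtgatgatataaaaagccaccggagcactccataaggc
IL11: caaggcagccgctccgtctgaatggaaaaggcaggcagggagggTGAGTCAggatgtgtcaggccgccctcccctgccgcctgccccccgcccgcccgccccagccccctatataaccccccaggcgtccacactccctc
The CXCL1 and CXCL2 windows aligned with 129 identical positions of 141 (91.5%), with a longest shared run of 42 bases, and their NF-kB matches begin 79 and 78 bases before the start. The IL6 match begins 73 bases before the start and the CCL20 match 79. No match of these motifs was found for CSF2 and TNF in this window, which says only that these letters are not there. The same holds for the NF-kB motif in CXCL8 and IL11. The CXCL8 window holds ggaatttcc, which also lies within the CXCL1 and CXCL2 matches, but the bases beside it fall outside the motif. Sites that depart from the motifs were not looked for.

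Library totals, in units of 1e6 expected counts, ran from 9.06 to 52.7. Levels are given as CPM (counts per 1e6 counts of the library) after scaling between libraries, and as TPM (transcripts per 1e6 transcripts, a measure per length) where genes are compared with each other. The 16 CRISPRi libraries fell into 2 sets by the mean length of the genes their reads came from, which the labels do not mention. Set A (both libraries of iMAE-126 together with SC replicates 1 and 2) had means of 3528 to 3716 bases and set B (SC replicates 3 to 6 and the 8 libraries of iMAE-1.1 or iMAE-1.2) of 3265 to 3396 bases. Within set A the means were 3528 and 3573 bases for iMAE-126 and 3646 and 3716 bases for SC, without overlap. The 786-O and 786-M1A libraries had means of 3909 to 3982 bases, and the OS-LM1 libraries of 3396 and 3622 bases. Of 12 leukocyte marker genes, CD3E and TYROBP were at 0 counts in all groups, and the summed level of all 12 was 5.21 to 16.5 CPM per library. The renal epithelial factor PAX8 was at 169 to 538 CPM in every library, whereas the hypoxia-regulated renal carcinoma marker CA9 was at 22.9 and 26.5 CPM in OS-LM1 and at 0 to 0.165 CPM in all others. CXCL1, CXCL2 and IL11 had fractional expected counts in 22 of 22 libraries, so some of their reads were shared with other sequences, and the split between the near-identical CXCL1 and CXCL2 is uncertain. The counts of the other 7 genes were whole. All 10 passed the filter on low counts in each fit, CCL20 only through OS-LM1 among the lines and only through SC against 786-M1A.

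The lines differed most in how much of these transcripts they held. Summed over the 10 genes, the level was 106 ± 1.195 TPM in 786-O, 158 ± 3.70 TPM in 786-M1A and 4389 ± 134 TPM in OS-LM1 (SD, n = 2 each). LIF made up 74.8% to 76.0% of the sum in 786-O, where no other member passed 6.94%. In 786-M1A LIF still led with 47.0% to 50.0%, followed by CXCL8 with 18.6% to 19.3% and CCL2 with 11.3% to 13.9%. In OS-LM1 the leader was CXCL1 at 1337 ± 112 TPM, with CXCL8 at 778 ± 119 TPM, IL6 at 778 ± 23.5 TPM and CCL20 at 746 ± 85.6 TPM, and LIF was in the fifth place of the order at 9.34% to 10.5%. The make-up ran from a single dominant gp130 cytokine in 786-O to a mixture led by chemokines in OS-LM1.

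**Figure D1:**
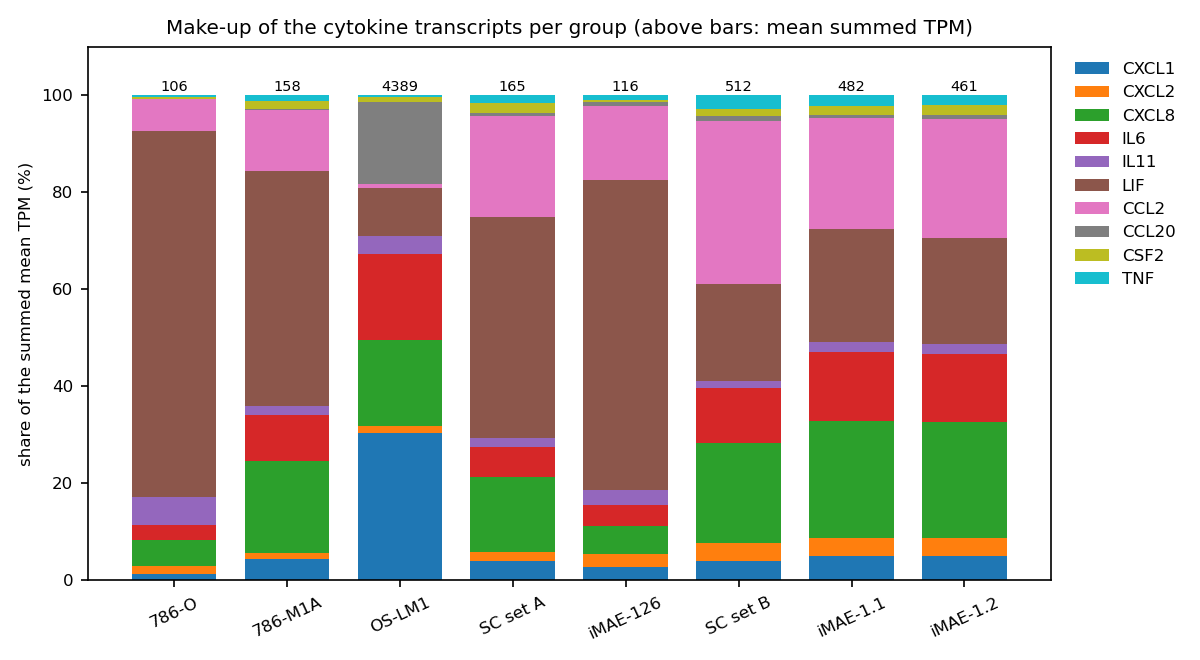
Share of each of the 10 cytokine genes in their summed mean TPM (vertical axis, percent), for each group, with SC divided into the 2 library sets. The number on top of each bar is the mean summed TPM, which is lowest in 786-O (106) and highest in OS-LM1 (4389), and the LIF segment is largest in 786-O and smallest in OS-LM1.

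The first comparison asked how 786-M1A differs from the 786-O line. Of the 10 genes, 6 were higher in 786-M1A (CXCL1, CXCL8, CCL2, IL6, CSF2 and TNF) and 1 was lower (IL11) in edgeR's quasi-likelihood test at an adjusted p (Benjamini-Hochberg) under 0.05. Over all 16354 genes tested, 31% were called in either direction, 14.7% higher and 16.3% lower. The median log2 fold change was 1.93 over the 10 genes and -0.02 over all genes tested.

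Among the neutrophil chemokines, CXCL1 stood at 0.563 and 0.784 CPM in the 786-O libraries and at 4.08 and 3.85 CPM in 786-M1A, a 5.65-fold difference (log2 2.50 ± 0.194 SE, adjusted p = 5.62e-05). CXCL8 stood at 4.03 and 4.63 CPM in 786-O and at 23.9 and 25.5 CPM in 786-M1A (5.55-fold, log2 2.47 ± 0.15 SE, adjusted p = 1.59e-05). For both genes the lowest 786-M1A library lay far above the highest 786-O library. CXCL2, the close relative of CXCL1, did not follow: it was at 1.08 and 0.888 CPM in 786-O and at 1.29 and 0.908 CPM in 786-M1A, where the libraries overlapped (log2 0.12 ± 0.23 SE, adjusted p = 0.741). CCL2, the monocyte chemokine, was at 2.38 and 2.19 CPM against 6.15 and 7.78 CPM in 786-M1A, and was called higher (2.96-fold, adjusted p = 0.00151). CCL20 rested on 1 and 2 counts in 786-O and on 6 and 4 counts in 786-M1A, which gives 2.99 as the ratio (95% counting interval from 0.769 to 16.9), and it entered the test only through its level in OS-LM1 (log2 1.46 ± 0.68 SE, adjusted p = 0.167).

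The gp130 cytokines separated. IL6 was at 1.93 and 1.47 CPM in 786-O and at 8.24 and 8.81 CPM in 786-M1A (4.88-fold higher, log2 2.29 ± 0.154 SE, adjusted p = 2.64e-05). IL11 moved the other way, from 6.73 and 6.65 CPM to 3.59 and 2.91 CPM (log2 -1.08 ± 0.136 SE, adjusted p = 0.000744), with no overlap between the lines. LIF, the most abundant of the 10 in both lines, was at 142 and 146 CPM in 786-O and at 151 and 146 CPM in 786-M1A (log2 0.01 ± 0.0995 SE, adjusted p = 0.98), and the 2 lines were nearly level, with the 786-M1A libraries just above the 786-O libraries. CSF2 rose from 0.185 and 0.0747 CPM (7 and 3 counts) to 0.866 and 1.12 CPM (39 and 47 counts), with log2 2.87 ± 0.382 SE and adjusted p = 0.000928. TNF rose from 0.318 and 0.124 CPM (12 and 5 counts) to 1.29 and 1.58 CPM (58 and 66 counts), with log2 2.65 ± 0.377 SE and adjusted p = 0.00131. Neither gene overlapped between the lines, but both were close to the lower limit of the counting in 786-O, and both passed the filter on low counts through the other lines. The share of all genes without overlap between these lines was not counted.

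**Figure D2:**
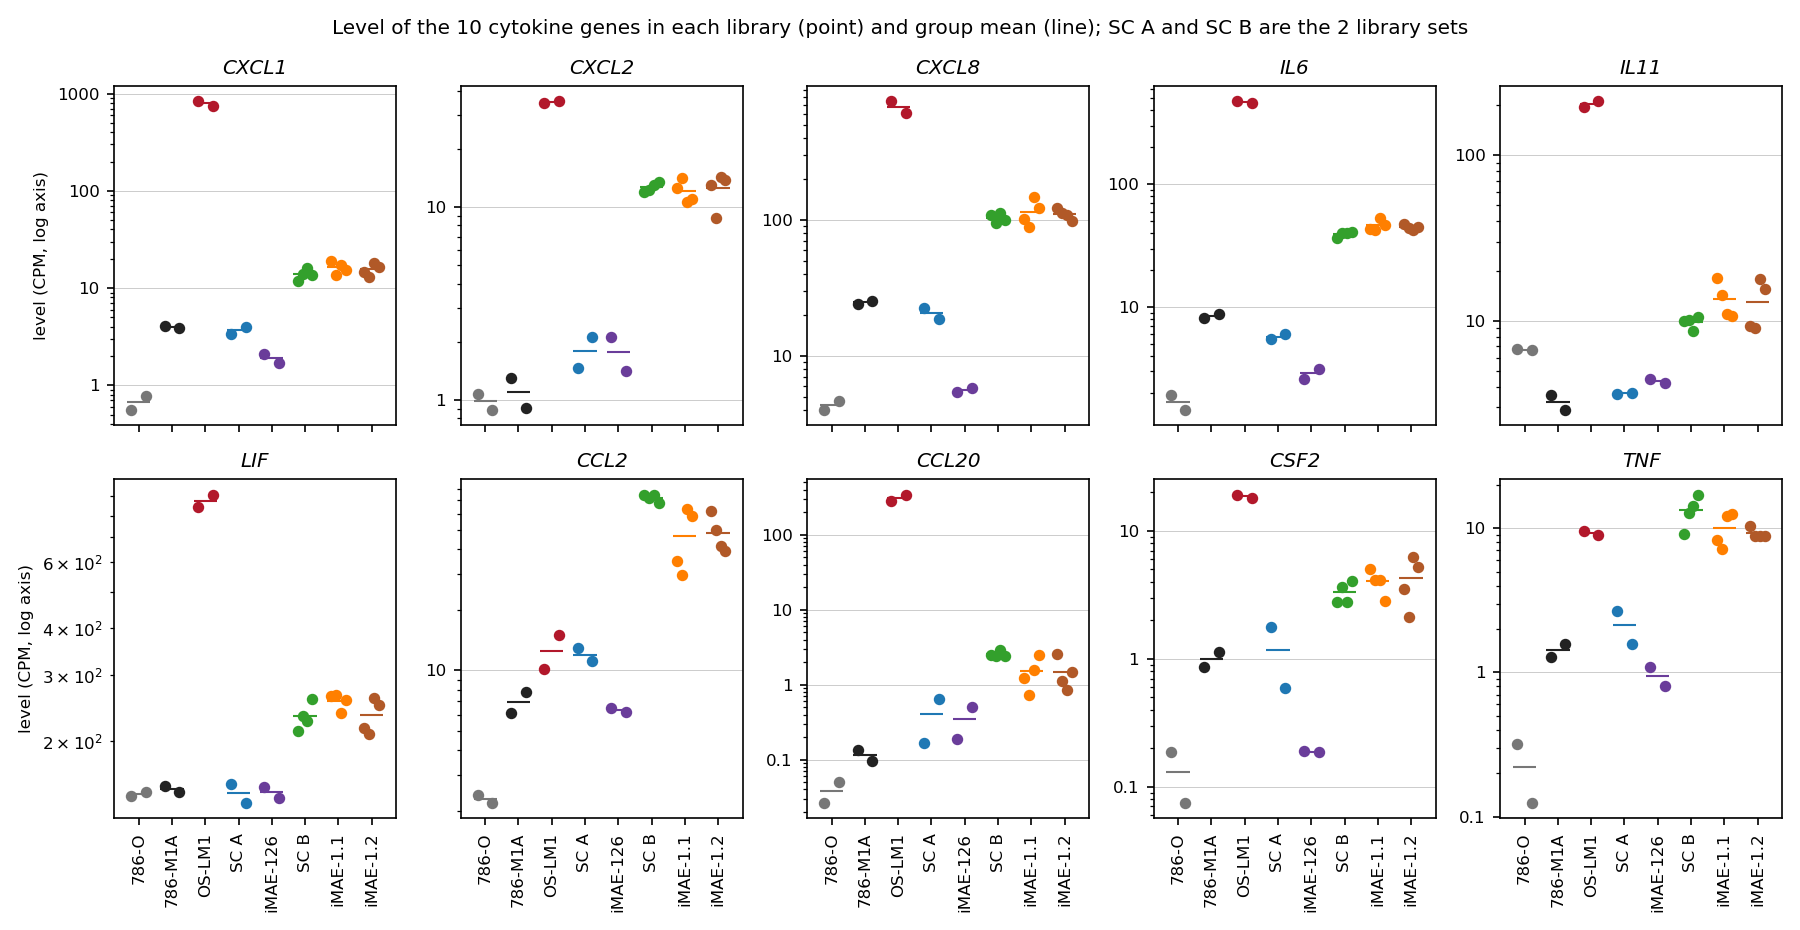
Level of each gene in every library (vertical axes, CPM on log scales that differ between panels), with the group mean as a line and SC divided into library sets A and B. OS-LM1 holds the highest points for 8 of the 10 genes, the exceptions being CCL2 and TNF, and the SC libraries of set B lie above those of set A for all 10. The share of all genes with such a separation of the sets was not counted.

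Other genes of the pathway were read from lists in the same comparison, in the order receptors, related ligands, gp130 signalling, RNA decay, NF-kB and NF-kB targets. Of 10 tested receptor genes 2 were higher and 1 was lower, among them LIFR, the LIF receptor (log2 0.69 ± 0.212 SE, adjusted p = 0.0393), and IL6R, the ligand-binding IL6 receptor (log2 -0.94 ± 0.129 SE, adjusted p = 0.00111). Of 16 other inflammatory ligands only IL18, an interleukin-1 relative, was called higher (log2 1.58), and 2 were lower, among them the membrane-bound chemokine CX3CL1 (log2 -1.21). Of 10 gp130 signalling genes 2 were lower, and of 8 regulators of cytokine RNA stability ZFP36L1 alone was called (log2 -0.55). Of 11 NF-kB subunits and feedback genes 7 were higher and 2 were lower. Those named by size were TNFAIP3, an inhibitor that NF-kB induces (log2 1.04 ± 0.119 SE), and the nuclear cofactors NFKBIZ (log2 -1.83 ± 0.122 SE) and BCL3 (log2 -0.98 ± 0.176 SE). The 12 other NF-kB targets divided into 5 higher and 5 lower, with the pentraxin PTX3 at log2 3.66 and the hyaluronan-binding TNFAIP6 at log2 -1.58.

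OS-LM1 held more of all 10 transcripts than either other line. All 10 were called higher against 786-O, where 63.6% of all genes tested were called in either direction, 30.4% higher and 33.3% lower. All 10 were also called higher against 786-M1A, where 68.7% of all genes tested were called in either direction, 34.4% higher and 34.3% lower. CCL20 was under the filter level in both other lines and entered these tests only through OS-LM1, so its call of higher was close to given. Both comparisons use the same OS-LM1 libraries, and the comparison of 786-M1A with 786-O shares the 786-O libraries. The median log2 fold change over the 10 genes was 6.24 against 786-O and 4.89 against 786-M1A, beside -0.01 and 0.04 over all genes tested. OS-LM1 libraries also had a shorter mean gene length than those of the other lines, so the line and its library preparation cannot be told apart. In bulk RNA, more cells expressing a gene and more RNA per cell cannot be told apart either.

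CCL20, the CCR6 ligand, showed the widest gap: 12731 counts (285 and 342 CPM) in OS-LM1 against 3 counts in 786-O, which gives 7984 as the ratio (95% counting interval from 2731 to 38721). CXCL1 was at 829 and 752 CPM in OS-LM1, 1134-fold above 786-O (log2 10.15 ± 0.195 SE, adjusted p = 5.04e-08) and 201-fold above 786-M1A (log2 7.65). CXCL8 was at 744 and 611 CPM (log2 7.26 against 786-O and 4.79 against 786-M1A). CXCL2 was the lowest of the 3 neutrophil chemokines, at 34.5 and 35.1 CPM, yet 34.4-fold above 786-O (log2 5.10 ± 0.192 SE). The exception among the chemokines was CCL2, at 10.1 and 14.9 CPM in OS-LM1, which was 5.31-fold above 786-O (log2 2.41 ± 0.234 SE) and only 1.80-fold above 786-M1A (log2 0.84 ± 0.213 SE, adjusted p = 0.0077). The CCL2 difference from 786-M1A was no longer called without 786-M1A replicate 1 (log2 0.67, adjusted p = 0.0648).

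The gp130 cytokines were all high in OS-LM1. IL6 was at 472 and 461 CPM, 269-fold above 786-O (log2 8.07 ± 0.167 SE) and 55.1-fold above 786-M1A. IL11 was at 194 and 211 CPM, 29.7-fold above 786-O and, because 786-M1A held less IL11 than 786-O, 62.5-fold above 786-M1A. LIF was at 845 and 909 CPM, 5.97-fold above 786-O and 5.95-fold above 786-M1A, so LIF and CCL2 had the smallest fold differences of the 10 from 786-O. CSF2 was at 19.2 and 18.2 CPM (log2 7.12 against 786-O, 4.24 against 786-M1A). TNF was at 9.54 and 8.98 CPM (log2 5.35 against 786-O, 2.70 against 786-M1A), and in TPM it was the least abundant of the 10 in OS-LM1 at 10.8 ± 0.615 TPM (SD, n = 2).

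**Figure D3:**
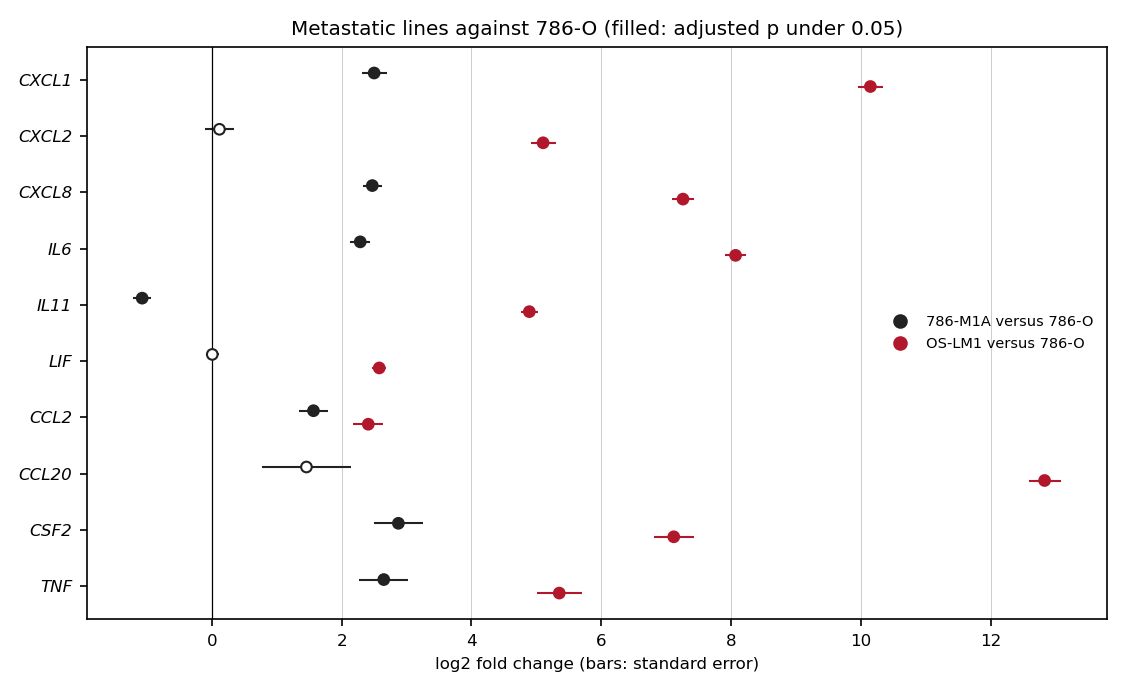
Log2 fold change of the 10 genes in 786-M1A and in OS-LM1 against the same 786-O libraries (horizontal axis), with bars of 1 standard error and filled points for an adjusted p under 0.05. All OS-LM1 points lie to the right of 0, from 2.41 for CCL2 to 12.83 for CCL20, whereas the 786-M1A points run from -1.08 for IL11 to 2.87 for CSF2.

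The receptor genes divided in direction. Against 786-O, 4 of 10 tested receptor genes were higher and 3 were lower in OS-LM1. CCR6, the receptor of CCL20, was at 25.2 CPM in OS-LM1 against 1.73 CPM in 786-O (log2 3.84 ± 0.176 SE, adjusted p = 1.14e-06), so both the ligand and its receptor were higher. LIFR (log2 -1.003) and TNFRSF1A, the main TNF receptor (log2 -0.71), were lower. CCR2, the CCL2 receptor, and CXCR1 had at most 1 count in any group and were not tested. Of 16 other inflammatory ligands 13 were higher and 1 was lower, and the largest changes among those with a mean of at least 5 CPM in a line included the neutrophil chemokines CXCL5 (519.6 CPM against 16.2 CPM, log2 4.97 ± 0.165 SE) and CXCL3 (log2 4.31). Below that level, and named after the values were seen, the interleukin-1 ligands IL1A (4.05 CPM against 0.144 CPM) and IL1B (2.08 CPM against 0.0124 CPM) and the granulocyte factor CSF3 (0.911 CPM against 0 CPM) were called higher too. On average IL1A, IL1B, CSF3, OSM, CTF1 and CNTF were under the filter level of 0.245 CPM in both other lines. These ligands entered the test only through OS-LM1, so a call of higher in OS-LM1 was close to given for them. Of 10 gp130 signalling genes 2 were higher and 5 were lower, with TYK2 at log2 -0.98 and STAT3 at log2 -0.89.

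Regulators of cytokine RNA and of NF-kB were read against the same 63.6% of genes called. Of 8 RNA decay and stability genes 3 were higher and 3 lower against 786-O, a share near that background, with a median log2 fold change of -0.05. ZC3H12A, a ribonuclease that degrades IL6 RNA, was at 165 CPM in OS-LM1 against 16.1 CPM in 786-O (log2 3.33 ± 0.136 SE), ZFP36 was higher (log2 0.89) and KHSRP was lower (log2 -1.29). Of 11 NF-kB subunits and feedback genes 8 were higher and 1 was lower, with TNFAIP3 (log2 3.57 ± 0.126 SE), NFKBIA (log2 1.82) and RELB (log2 1.29) as the largest. Of 12 other NF-kB targets 10 were higher and none was lower, led by PTGS2, the inducible prostaglandin synthase (log2 4.49 ± 0.227 SE). Against 786-M1A the counts were 5 higher and 3 lower of 10 receptors, 14 and 0 of 16 ligands, 4 and 6 of 10 gp130 genes, 4 and 3 of 8 decay genes, 7 and 2 of 11 NF-kB genes, and 6 and 1 of 12 targets. The 14 ligands again included those that entered the test only through OS-LM1.

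The control guide SC and its own line, 786-M1A, were compared next, to read how far CRISPRi cells differ from unmodified cells. Against 786-M1A, 5 of the 10 genes were called higher in the 6 SC libraries (CXCL2, CCL2, CCL20, IL11 and TNF) and none lower, and the median log2 fold change was 1.77 beside 0.07 over all genes. In this comparison 53% of the 14769 genes tested were called in either direction, 27.8% higher and 25.3% lower. On the log2(TPM + 1) scale with limma, the calls among all genes were 2508 higher and 5027 lower instead of 4100 and 3732, and 3 of the 10 genes were called. No SC library shares the mean gene length of the 786-M1A libraries, so the vector and the library set cannot be told apart here.

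The SC libraries themselves fell into 2 levels for these genes. CXCL8 was at 22.5 and 18.8 CPM in the SC libraries of set A, against 108, 94.8, 112 and 100.4 CPM in those of set B. CCL2 was at 12.9 and 11.1 CPM in the first set, against 74.7, 71.7, 74.3 and 67.7 CPM in set B. IL6 was at 5.48 and 5.99 CPM in the first set, against 36.3, 40.1, 40.5 and 40.6 CPM in set B. In each case the libraries within a set lay close together and the sets did not overlap, although the guide, line and label are the same. How many of all genes also separated between the sets, in either direction, was not counted. The ratio of the set means, B over A, was 7.07 for CXCL2, 6.86 for IL6, 6.26 for CCL20, 6.25 for TNF, 6.02 for CCL2, 5.04 for CXCL8, 3.76 for CXCL1, 2.82 for CSF2, 2.68 for IL11 and 1.61 for LIF, and its median over all genes tested was 1.02. The summed level was 165 ± 9.41 TPM (SD, n = 2) in set A and 512 ± 12.6 TPM (SD, n = 4) in set B, and the leading gene was LIF in set A (45.6% to 45.7%) and CCL2 in set B (31.3% to 35.8%).

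The result of the comparison with 786-M1A followed the set. With the SC libraries of set A alone 2 of the 10 genes were called, CCL2 higher (log2 0.89, adjusted p = 0.000817) and IL6 lower (log2 -0.47, adjusted p = 0.0302). Over all 15046 genes tested in that fit 7708 were called, 3622 higher and 4086 lower. With the SC libraries of set B alone all 10 were higher, from log2 0.70 for LIF to 4.48 for CCL20. Most genes were called in that fit, 11543 of 14596, with 5793 higher and 5750 lower. With the 6 SC libraries together, CXCL2 was at log2 3.12 ± 0.938 SE (adjusted p = 0.0219), CCL2 at 3.002 ± 0.867 SE (adjusted p = 0.0189). CCL20 was at log2 4.02 ± 1.06 SE (adjusted p = 0.0135), but it had 6 and 4 counts in 786-M1A and entered the test only through SC. TNF was at log2 2.83 ± 0.896 SE (adjusted p = 0.0266) and IL11 at 1.34 ± 0.468 SE (adjusted p = 0.0377). The TNF libraries overlapped, with SC replicate 2 at 1.56 CPM and 786-M1A replicate 2 at 1.58 CPM. CXCL1, CXCL8, IL6, LIF and CSF2 were not called (adjusted p from 0.0563 to 0.0911). The count of called members was 0 without either 786-M1A replicate, 10 without SC replicate 1 or 2, and 4 without SC replicate 3, 4, 5 or 6, IL11 being the gene lost. Among the listed genes, LIFR (log2 -1.46) and IL6ST (log2 -1.30), which encode gp130 receptor subunits, were lower in SC, and CCL5, a lymphocyte and monocyte chemokine, was higher (log2 2.72).

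In view of these sets, each targeting guide was read against the SC libraries of its own set, by fitting all 16 CRISPRi libraries with the set as a term. With the guide iMAE-1.1 none of the 10 genes was called, at a background of 1.79% of 15254 genes tested (0.911% higher and 0.878% lower). With iMAE-1.2 none was called either, at a background of 2.73% (1.39% higher and 1.34% lower). Without adjustment 3 of the 10 had p under 0.05 with iMAE-1.1 and 4 with iMAE-1.2, beside 1995 and 2321 of all 15254 genes at that threshold, and DESeq2 called 0 of the 10 in both. The guides share the SC libraries. In a direct test of one iMAE-1 guide against the other none of the 10 was called and 0% of all genes were (218 genes at an unadjusted p under 0.05, and 1 gene called by DESeq2). The levels of CCL2 and IL11 given next cross these 2 guides' labels, the labels were used as given, and whether each library holds the guide it is labelled with was not tested.

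CCL2, the monocyte chemokine, stood below SC in every library of these guides. It was at 35.0, 29.9, 63.5 and 58.5 CPM in the iMAE-1.1 libraries and at 62.3, 50.0, 41.7 and 39.1 CPM in the iMAE-1.2 libraries, all 8 below the 67.7 to 74.7 CPM of the 4 SC libraries of the set. The log2 fold change was -0.62 ± 0.211 SE (adjusted p = 0.197) for iMAE-1.1 and -0.59 ± 0.212 SE (adjusted p = 0.19) for iMAE-1.2, so this difference did not pass the test over all genes. How many of all genes tested separated from SC in such a way, in either direction, was not counted, for CCL2 or for the genes below. IL6 had the opposite arrangement: 42.1 to 53.1 CPM with iMAE-1.1 and 42.2 to 47.1 CPM with iMAE-1.2 lay above the 36.3 to 40.6 CPM of SC, with log2 0.24 ± 0.0797 SE (adjusted p = 0.163) and 0.17 ± 0.08 SE (adjusted p = 0.309). CCL20 was at 1.22, 0.730, 1.57 and 2.51 CPM with iMAE-1.1 and at 2.56, 1.12, 0.844 and 1.46 CPM with iMAE-1.2 against 2.39 to 2.93 CPM in SC, on 9 to 56 counts per library. Its log2 fold changes were -0.72 ± 0.382 SE and -0.85 ± 0.391 SE and the libraries overlapped. TNF was at 7.22 to 12.5 CPM and 8.78 to 10.4 CPM against 9.08 to 17.1 CPM, with log2 -0.39 ± 0.198 SE and -0.53 ± 0.2 SE (adjusted p = 0.412 and 0.189).

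The remaining 6 genes were not called either. CXCL1 was at 13.6 to 19.2 CPM with iMAE-1.1 and 13.0 to 18.0 CPM with iMAE-1.2 against 11.96 to 15.9 CPM in SC, with log2 0.23 ± 0.129 SE and 0.16 ± 0.129 SE. CXCL2 (log2 -0.07 ± 0.152 SE and -0.03 ± 0.152 SE), CXCL8 (0.15 ± 0.122 SE and 0.09 ± 0.122 SE) and LIF (0.13 ± 0.0757 SE and 0.01 ± 0.0758 SE) had small differences. CSF2 had 0.27 ± 0.311 SE and 0.36 ± 0.31 SE on the log2 scale, an error wide enough to hold a difference in either direction. IL11 was at 18.2, 14.4, 11.04 and 10.7 CPM with iMAE-1.1 and at 9.27, 9.01, 17.8 and 15.5 CPM with iMAE-1.2, against 8.66 to 10.5 CPM in SC, with no overlap for iMAE-1.1 (log2 0.46 ± 0.206 SE and 0.41 ± 0.207 SE, adjusted p = 0.349 and 0.367). IL11 and CCL2 varied within each guide group by more than the guides differed from each other.

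Few listed pathway genes were called with these guides. With iMAE-1.1 no gene was called of 10 receptors, 11 ligands, 8 decay genes, 11 NF-kB genes and 11 NF-kB targets, and 1 of 10 gp130 signalling genes was lower. With iMAE-1.2 1 of the 10 gp130 signalling genes was lower. The ligands CXCL5 (log2 -0.70 ± 0.146 SE, adjusted p = 0.0178) and IL18 (log2 -0.44 ± 0.104 SE, adjusted p = 0.0267) were lower, and of the NF-kB targets 1 was higher and 1 was lower, the latter VCAM1, a leukocyte adhesion molecule (log2 -0.58).

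The guide iMAE-126 differed from SC in more of the 10 genes. Against SC, 5 were lower (CXCL1, CXCL8, IL6, CSF2 and TNF) and none was higher, beside 16.7% of the 15254 genes tested in either direction, 6.31% higher and 10.4% lower. The median log2 fold change was -0.94 over the 10 genes and 0.003 over all genes tested. Mean gene length also differed between iMAE-126 and SC within set A, which the set term does not cover. Its part in these differences was not tested. CXCL8 was at 5.46 and 5.77 CPM with iMAE-126 against 22.5 and 18.8 CPM in SC of the same set, 3.67-fold lower (log2 -1.88 ± 0.211 SE, adjusted p = 8.03e-05). CXCL1 was at 2.08 and 1.71 CPM against 3.38 and 4.02 CPM (log2 -0.97 ± 0.228 SE, adjusted p = 0.00802). IL6 was at 2.61 and 3.17 CPM against 5.48 and 5.99 CPM (log2 -0.96 ± 0.154 SE, adjusted p = 0.000698). For these 3 genes each iMAE-126 library lay below each SC library, and CXCL8 was close to the 4.03 and 4.63 CPM of the 786-O libraries, which belong to another comparison. Among the genes not called, CCL2 also lay below SC without overlap and IL11 above it. How many of all genes tested separated in this way, in either direction, was not counted.

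CSF2 and TNF fell on few counts, and CSF2 was under the filter level in both iMAE-126 libraries. CSF2 was at 0.190 and 0.186 CPM with iMAE-126 (4 and 7 counts) against 1.77 and 0.586 CPM in SC (43 and 9 counts), log2 -2.68 ± 0.634 SE and adjusted p = 0.009. TNF was at 1.09 and 0.798 CPM (23 and 30 counts) against 2.68 and 1.56 CPM (65 and 24 counts), log2 -1.24 ± 0.383 SE and adjusted p = 0.0337. The SC libraries of set A differed from each other for both genes, and single libraries decided these calls. CSF2 was no longer called without SC replicate 1 (log2 -1.62, adjusted p = 0.212), iMAE-126 replicate 1 (adjusted p = 0.0613) or iMAE-126 replicate 2 (adjusted p = 0.0878). TNF was lost without SC replicate 1 (log2 -0.78, adjusted p = 0.338), iMAE-126 replicate 1 (adjusted p = 0.0781) or replicate 2 (adjusted p = 0.228), and in a fit of set A alone (log2 -1.19, adjusted p = 0.0779). CXCL1 was lost without SC replicate 2 (adjusted p = 0.0778) or iMAE-126 replicate 2 (adjusted p = 0.0963). CXCL8 and IL6 were called in each of the 8 fits that left out a library, with adjusted p up to 0.00288 and 0.0129.

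CCL2 and the other gp130 cytokines were not called with iMAE-126. CCL2 was at 6.51 and 6.17 CPM against 12.9 and 11.1 CPM, without overlap, but its adjusted p was 0.0941 (log2 -0.93 ± 0.357 SE). It was called by DESeq2 (adjusted p = 0.0316) and in a fit of set A alone (log2 -0.91, adjusted p = 0.00165). LIF was at 150.2 and 141 CPM against 153 and 136 CPM (log2 0.01 ± 0.107 SE). IL11 was at 4.45 and 4.21 CPM against 3.63 and 3.68 CPM (log2 0.25 ± 0.322 SE, adjusted p = 0.64). CXCL2 was at 2.12 and 1.41 CPM against 1.47 and 2.11 CPM (log2 -0.02 ± 0.287 SE), and CCL20 at 0.190 and 0.505 CPM against 0.165 and 0.652 CPM on 4 to 19 counts (log2 0.01 ± 0.551 SE). The neutrophil chemokines divided here as they did between 786-M1A and 786-O, with CXCL1 and CXCL8 called and CXCL2 not, and the difference between CXCL1 and CXCL2 was not tested. LIF made up 63.4% to 64.3% of the summed level with iMAE-126, against 45.6% to 45.7% in SC of set A, and the sum was 116 ± 3.01 TPM (SD, n = 2) against 165 ± 9.41 TPM (SD, n = 2).

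**Figure D4:**
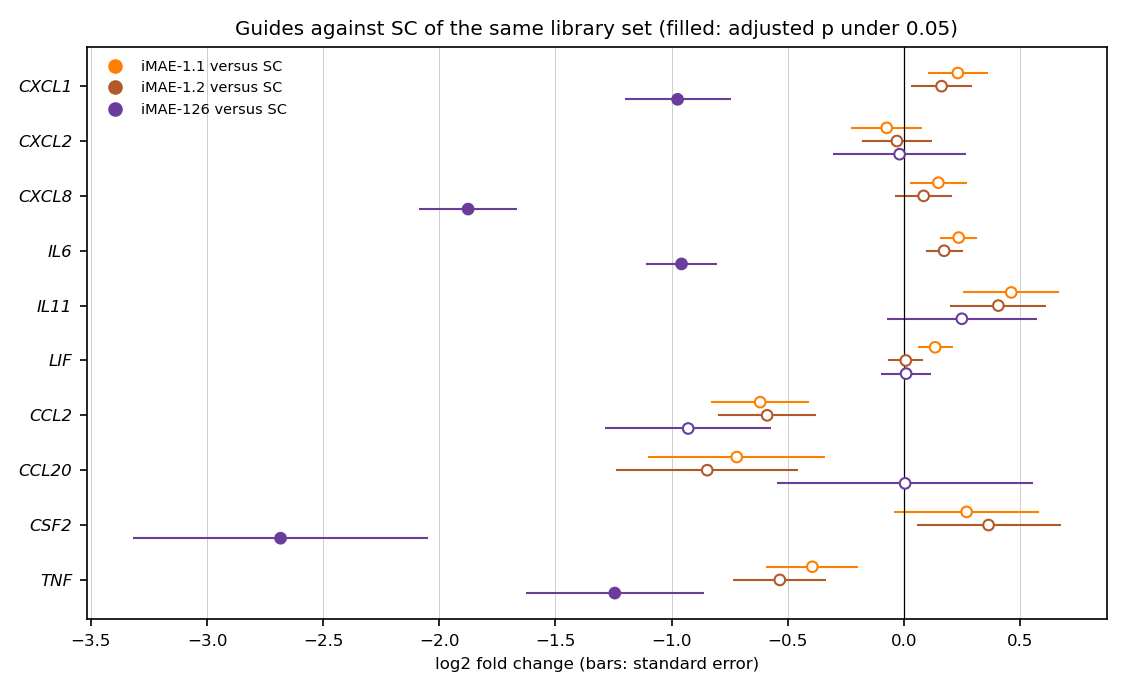
Log2 fold change of the 10 genes with each targeting guide (iMAE-1.1, iMAE-1.2, iMAE-126) against SC of the same library set (horizontal axis), with bars of 1 standard error and filled points for an adjusted p under 0.05. Filled points belong to iMAE-126 alone, for CXCL1, CXCL8, IL6, CSF2 and TNF, and the CCL2 points of all 3 guides lie between -0.93 and -0.59.

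The change with iMAE-126 was set against the mean change with the iMAE-1 guides in a contrast added after the values were seen. It was lower for 4 of the 10 genes, beside 11.9% of all genes tested in either direction, 4.42% higher and 7.44% lower. They were CXCL8 (log2 -1.99 ± 0.236 SE, adjusted p = 0.000145), IL6 (log2 -1.16 ± 0.169 SE, adjusted p = 0.000367), CXCL1 (log2 -1.17 ± 0.255 SE, adjusted p = 0.00664) and CSF2 (log2 -3.00 ± 0.691 SE, adjusted p = 0.0103). For TNF (log2 -0.78 ± 0.419 SE, adjusted p = 0.241) and CCL2 (log2 -0.32 ± 0.4 SE, adjusted p = 0.649) the guides were not shown to differ. CXCL1 was no longer called in this contrast without SC replicate 2 (adjusted p = 0.0505) or iMAE-126 replicate 2 (adjusted p = 0.0695), and CSF2 not without SC replicate 1 (adjusted p = 0.167), iMAE-126 replicate 1 (adjusted p = 0.0561) or replicate 2 (adjusted p = 0.0829). Each guide was measured in 1 library set only, so the contrast also compares the sets, and their part in it was not tested beyond the SC libraries in each.

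The pathway lists were read in the same comparison. Of 10 tested receptor genes 2 were higher and 2 were lower, the latter LIFR (log2 -1.06 ± 0.136 SE, adjusted p = 9.77e-05) and IL6ST (log2 -0.59 ± 0.112 SE, adjusted p = 0.00215), both subunits through which LIF signals. Of 11 other ligands CXCL5 was lower (log2 -1.07 ± 0.238 SE) and CCL5 was higher (log2 0.96 ± 0.19 SE). Of 10 gp130 signalling genes the phosphatase PTPN11 alone was called (log2 -0.41). Among 8 decay genes ZFP36 (log2 0.67 ± 0.152 SE) and ZFP36L1 (log2 0.29) were higher and 2 were lower, RC3H1 among them (log2 -0.39). Of 11 NF-kB genes NFKBIZ was higher (log2 0.65) and 3 were lower, among them TNFAIP3 (log2 -0.56 ± 0.129 SE) and NFKBIE (log2 -0.44), and of 11 NF-kB targets 1 was higher and 3 were lower, among them PTX3 (log2 -1.91) and the adhesion molecule ICAM1 (log2 -0.72). PTX3 and TNFAIP3 were higher in 786-M1A than in 786-O and lower with iMAE-126, whereas NFKBIZ had the reverse signs.

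Across all groups the order of the levels differed between genes. CXCL1, CXCL8, IL6, CCL2, CSF2 and TNF were lowest in 786-O and next lowest with iMAE-126, without overlap between those 2 groups. For CSF2 the highest 786-O library (0.185 CPM) was level with the lowest iMAE-126 library (0.186 CPM), and for CCL2 iMAE-126 overlapped with 786-M1A. How many of all genes had this order was not counted. 786-M1A and SC of set A overlapped for CXCL1, CSF2 and TNF but not for CXCL8 and IL6, where 786-M1A was higher, or for CCL2, where it was lower. Libraries of set B (SC, iMAE-1.1, iMAE-1.2) overlapped with their neighbours in the order except for IL6 and CCL2, where SC stood apart. For the 8 genes other than CCL2 and TNF they lay above all other 786-O and 786-M1A libraries and below OS-LM1. CCL2 and TNF were highest in SC of set B, at 72.1 CPM and 13.3 CPM on average, and OS-LM1 at 12.5 CPM of CCL2 overlapped with SC of set A. IL11 was lowest in 786-M1A and LIF was level in 786-O, SC set A, iMAE-126 and 786-M1A, whose means ran from 144 to 148 CPM and whose neighbours overlapped.

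Over the 22 libraries the genes most alike in log2 CPM among the 10 were CXCL8 and IL6 (Pearson r = 0.989), IL11 and LIF (0.978) and CXCL8 and CSF2 (0.97), and the least alike were IL11 and CCL2 (0.191). Beyond the 10, TNFAIP3 had r = 0.991 with IL6, 0.979 with CXCL8 and 0.966 with CSF2. NFKBIA, the inhibitor IkBa that NF-kB induces, had r = 0.966 with CXCL2. CCL2 was most like CLEC4E, a lectin receptor (0.99), TNF was most like IL18 (0.959), and IL11 and LIF were both most like SFN (0.978 and 0.981). CXCL1 was most like ZFAND2A (0.975) and CCL20 most like ACSL5 (0.973). These values describe 22 libraries that share lines and library sets, with OS-LM1 far above the rest for most genes, and no test was made.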

How the data were processed

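RNA sequencing of 22 libraries of human renal cancer cell lines was analysed, from one gene table per library. Poly(A) RNA was made into dUTP-marked stranded libraries with the KAPA kit, per the labels' protocols. Bowtie2, RSEM and the build hg19 are named in the submitters' processing notes, without a version, and for annotation and strand setting the sources used here give nothing. The deposited tables hold RSEM expected counts per gene, which need not be whole, and TPM values computed by the authors.

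Groups were taken from the labels. Rounded counts were fitted with edgeR 4.0.16 (quasi-likelihood, robust, TMM factors, filterByExpr with a minimum count of 10) in R 4.3.3, with Benjamini-Hochberg adjustment over all genes tested and a threshold of 0.05. The 3 lines were fitted together, SC with 786-M1A, and the 16 CRISPRi libraries with the library set as a term. CPM used library totals times TMM factors over all 22 libraries. Alternatives were DESeq2 1.42.0, RLE factors, no count filter, a replicate block, limma 3.58.1 on log2(TPM + 1) and leaving out each library. Standard errors follow from the fold change and the F statistic. From the pathway lists up to 3 called genes with the largest change and a mean of at least 5 CPM in a compared group were named in each comparison, and some genes that met this rule are not reported here. Genes of like pattern were the 3 with the highest Pearson r of log2 CPM (prior count 2, median of at least 1 CPM). The 10 genes and the lists were chosen with earlier results of these data known. Counting intervals cover counting error only. Replicate numbers did not pair the libraries (same-number correlations of deviations from -0.48 to 0.13), so no block was used. Precision is limited by 2 libraries in 4 of the groups and by counts under 10 for CCL20, CSF2 and TNF in some libraries. The scripts were tested on simulated data.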

Additional observations from a re-analysis of the deposited data

Results flagged for a closer look

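TNF in iMAE-1.2 replicate 1 was at 10.4 CPM while the other 3 libraries of that group were at 8.78 to 8.89 CPM, a gap of 0.93 of the whole range. It was the only such library in 30 groups tested, and chance gives about 1 in 20. Those groups include SC for each gene with sets A and B pooled. There the gap between the sets can keep a single library from standing out. TNF was not called with iMAE-1.2 in any case.

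The change with iMAE-126 differed from the mean change with the iMAE-1 guides for CXCL8 (log2 -1.99), IL6 (-1.16), CXCL1 (-1.17) and CSF2 (-3.00), by a test of the difference itself that was added after the data were seen. The 2 kinds of guide were measured in different library sets, each with its own SC libraries.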

How the results depend on the processing

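Of 1199 values of single members under alternatives, 1139 kept their side of the threshold, 37 lost the call, 21 gained it and 2 reversed. A change of sign counted as a reversal only where either fit called the gene, so the 1139 include values whose sign changed without a call. CXCL8 in SC against 786-M1A was such a value, at log2 -0.15 with SC of set A alone and 1.72 in the main fit. The reversals were IL6 in SC against 786-M1A, at log2 -0.47 with SC of set A alone and at -0.46 (adjusted p = 0.002) with the replicate block. They are not separate checks. With the block, the SC libraries of set B have no same-numbered 786-M1A library, so the fold change rests on SC of set A in both fits. In that comparison the members called were 2 with SC of set A alone, 10 with set B alone, 3 with limma on log2(TPM + 1), 5 with the replicate block and 0 to 10 when a library was left out. With iMAE-126 against SC they were 2 to 5 when a library was left out and 7 without the set as a term, which added CXCL2 and CCL2. In the added contrast they were 2 to 4 when a library was left out and 3 with the replicate block, where CSF2 had an adjusted p of 0.06. Other causes of these changes were not tested.

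The replicate block changed no other call of a member except IL11 in SC against 786-M1A (log2 0.27, adjusted p = 0.314). Over all genes the calls with the block were 6 instead of 273 for iMAE-1.1, 10 instead of 417 for iMAE-1.2, 1388 instead of 2550 for iMAE-126 and 355 instead of 1809 for the added contrast. Same-numbered OS-LM1 and 786-M1A libraries had a correlation of -0.18, and with the numbers crossed, an alternative chosen after seeing the data, 10 members and 11237 genes were called. For SC against 786-M1A, 7708 of 15046 genes were called with SC of set A alone and 11543 of 14596 with set B alone. DESeq2 called 487 genes for iMAE-1.1 and 654 for iMAE-1.2. Without the set as a term 69 and 110 genes were called. With set A alone, also chosen after seeing the data, 3636 genes were called for iMAE-126, and set B alone gave 186 for iMAE-1.1. With a library left out the genes called were 2259 to 2551 for 786-M1A against 786-O instead of 5064, 1999 to 9085 for SC against 786-M1A instead of 7832, 135 to 271 for iMAE-1.1, 201 to 441 for iMAE-1.2, 728 to 2289 for iMAE-126 and 671 to 2143 for the added contrast. Where that leaves a group with 1 library, that library's spread is taken to be that of the other groups.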

Other observations

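Within library set B the values of CCL2 and IL11 crossed the guides. The libraries iMAE-1.1 replicates 1 and 2 and iMAE-1.2 replicates 3 and 4 held CCL2 at 35.0, 29.9, 41.7 and 39.1 CPM and IL11 at 18.2, 14.4, 17.8 and 15.5 CPM. The other 4 libraries of these guides held CCL2 at 63.5, 58.5, 62.3 and 50.0 CPM and IL11 at 11.04, 10.7, 9.27 and 9.01 CPM. The labels name no batch that divides the libraries in this way. If libraries of these guides were exchanged, every value given here by guide for iMAE-1.1 or iMAE-1.2, and the direct test between them, would change. This was not tested. Same-numbered libraries of the 2 guides had correlations of -0.24 to -0.48.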
